A study of Mus musculus with 3 samples.

Results

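*Cdkn1a*, the gene of the cyclin-dependent kinase inhibitor p21, was followed with 7 further genes of the p53 response in mouse pancreatic islet cells after loss of Taf4. The 8 genes were *Cdkn1a*, *Ccng1*, *Mdm2*, *Trp53inp1*, *Bax*, *Phlda3*, *Bbc3* and *Trp53*, out of 17226 genes listed in the 3 tables of the series. They were chosen by name because *Cdkn1a* stood among the most raised genes of beta cells in these same data, so its beta cell values are a description and were not tested. Taf4 is a subunit of the general transcription factor TFIID. Single-cell RNA-seq had been made from 1 WT library (300 islets of 1 mouse) and from 1 library each of *Taf4* mutant islets at 1 week and at 5 weeks after tamoxifen (300 islets pooled from 2 mice each). Mutant mice carried floxed *Taf4* alleles and a tamoxifen-inducible Cre, Cre-ERT2, driven by *Ins1*, so that the deletion was aimed at beta cells of adult mice. In the study the controls carried the same driver and also received tamoxifen, but the labels of the WT mouse give only wild type. All mice were C57/Bl6 and labelled male, and only live-sorted cells were captured.

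Between 19472212 and 39408284 UMIs (unique molecular identifiers, each standing for 1 captured transcript) were counted per library, over 12000, 2295 and 11229 barcodes in the WT, 1-week and 5-week libraries. The WT library went against its label: it held 17357 UMIs of *Xist* and 0 of Y-linked genes, whereas the mutant libraries held 17 and 11 *Xist* UMIs. Every comparison with WT is therefore also one with an animal whose transcripts did not match the labelled sex, and with 1 library per group, genotype, animal, sex and library cannot be told apart. No test between groups was possible, and the 95% intervals given in parentheses are exact and cover counting error only. *Taf4* itself was counted at 4.68 CPM in WT beta cells, 7.53 CPM at 1 week and 3.54 CPM at 5 weeks, where CPM is the gene's UMIs per 1000000 UMIs of those cells. These reads come from the 3′ end of the transcript, which need not lie in the deleted part, so the values check nothing about the deletion. Barcodes shared between libraries numbered 2 to 33.

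Beta cells were those with at least 20% of UMIs from *Ins2* and under 3% from *Gcg*, alpha cells those with at least 15% from *Gcg*, and delta cells those with at least 5% from *Sst*. At 1 week the lower limits were 5%, 8% and 1.5%, in barcodes of at least 5000 UMIs. This gave 8271, 562 and 5685 beta cells in the WT, 1-week and 5-week libraries, 2815, 175 and 3322 alpha cells, and 621, 38 and 1443 delta cells. Median UMIs per cell were 1656, 24754.5 and 3868 for beta cells in the same order, 765, 21709 and 1896.5 for alpha cells, and 622, 17739.5 and 1207 for delta cells. The study had filtered the WT library alone for doublets and cells of mixed hormones. Between 1 and 69 cells of a class lay above its lower limit by at most 10% of that limit, and between 0 and 66 below it by as much. Markers that the limits did not use were compared with the hormones left out. The other genes of the beta list summed to 3221 to 6628 CPM in the beta cells of the 3 libraries and to at most 1045.5 CPM in any alpha or delta class. Those of the alpha list summed to 1866 to 3091 CPM in alpha cells and to at most 1490 CPM elsewhere, and those of the delta list to 9120 to 12066 CPM in delta cells and to at most 2503 CPM elsewhere. At 5 weeks 128 beta cells and 202 delta cells also met the limits of a second class.

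The protein p53, encoded by *Trp53*, is a transcription factor that is held at a low level by the ubiquitin ligase Mdm2 and accumulates when cells meet DNA damage or other stress. It then binds a paired decamer motif, the p53 response element, and raises genes that halt the cell cycle, trigger apoptosis, repair DNA or restrain p53 again. *Cdkn1a* is the best known of the arrest genes and is also raised through pathways that do not need p53, and p21 is a familiar marker of arrested and senescent cells. *Ccng1* encodes cyclin G1, *Trp53inp1* a stress protein that modulates p53, *Bax* and *Bbc3* (Puma) members of the BCL2 family that promote apoptosis, and *Phlda3* an inhibitor of Akt signalling. In beta cells *Cdkn1a* is known as one of the brakes on replication.

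A p53 response element with at most 1 mismatch lay within 250 bases upstream of an annotated start in 2 of the 8 genes, *Cdkn1a* and *Ccng1*. The windows are shown because *Cdkn1a* and *Ccng1* are also the arrest genes that the results turn on. All are RefSeq promoters of GRCm38.p6 (mm10), printed 5′ to 3′ on the strand of the gene. RefSeq windows were matched for 7 of the 8 genes, 10 windows in all. Capitals mark the p53 response element in the first *Cdkn1a* window (chr17:29090729-29090978, plus strand) and in the *Ccng1* window (chr11:40755287-40755536, minus strand). In the window of the second *Cdkn1a* start (chr17:29093519-29093768, plus strand) they mark a TATA-like motif, TATAAG, of the kind that TFIID contacts.
Cdkn1a first start: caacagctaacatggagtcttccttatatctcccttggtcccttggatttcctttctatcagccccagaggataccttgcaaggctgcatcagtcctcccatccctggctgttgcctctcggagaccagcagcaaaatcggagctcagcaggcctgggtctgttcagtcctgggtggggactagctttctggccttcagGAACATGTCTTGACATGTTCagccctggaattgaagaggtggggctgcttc
Cdkn1a second start: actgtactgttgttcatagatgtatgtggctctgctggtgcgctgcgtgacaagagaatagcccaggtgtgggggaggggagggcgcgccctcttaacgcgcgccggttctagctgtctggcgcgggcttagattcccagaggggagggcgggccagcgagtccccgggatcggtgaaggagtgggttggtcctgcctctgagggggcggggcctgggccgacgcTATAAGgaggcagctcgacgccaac
Ccng1: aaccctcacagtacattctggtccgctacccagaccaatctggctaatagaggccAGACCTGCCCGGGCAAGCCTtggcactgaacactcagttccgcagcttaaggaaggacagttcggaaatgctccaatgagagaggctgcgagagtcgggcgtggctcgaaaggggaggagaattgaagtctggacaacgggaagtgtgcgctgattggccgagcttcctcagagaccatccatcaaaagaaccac
The element of *Cdkn1a* began 51 bases before the first start and that of *Ccng1* 195 bases before its start. Searched on both strands with no spacer between the decamers and with the core C and G of each fixed, such an element was found in 0.0578% of the 32851 promoter windows of the same length, and with up to 2 mismatches in 0.271%. The TATA-like motif, 25 bases before the second *Cdkn1a* start, occurred on either strand in 6.65% of windows, and also lay on the opposite strand of the first *Cdkn1a* window, 228 bases before the start. The windows of *Mdm2*, *Bax*, *Phlda3*, *Bbc3* and *Trp53* held no such element with up to 2 mismatches, which says only that these letters are not within that distance. Of the 19 genes with an element of at most 1 mismatch, 5 had at least 20 beta cell UMIs in WT and 1 week together. Besides *Cdkn1a* and *Ccng1* these were *Rps27l*, a ribosomal protein-like gene, *Mthfd1*, an enzyme of folate metabolism, and *Sptbn4*, a spectrin, named because their windows hold the element. Their beta cell log2 ratios of 1 week over WT were 1.06, 1.52 and 1.42, where the median of all genes was 1.11.

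In WT islets the 8 genes were low, and *Cdkn1a* was lowest in beta cells. *Cdkn1a* (chromosome 17, 29090979 to 29100722) stood at 12.8 CPM (11.1 to 14.7) in WT beta cells, at 50.7 CPM (42.1 to 60.5) in alpha cells and at 56.7 CPM (36.7 to 83.7) in delta cells. The beta cell level was lower than the others by more than the counting intervals, whereas alpha and delta cells overlapped. Hormone RNA takes up much of each cell's UMIs and lowers every other gene's CPM: *Ins1*, *Ins2*, *Gcg*, *Sst*, *Ppy*, *Pyy*, *Iapp* and *Ttr* made up 68.1% of WT beta cell UMIs, 45.3% of WT alpha cell UMIs and 33.0% of WT delta cell UMIs. With these left out of the total, WT *Cdkn1a* stood at 40.3 CPM in beta, 92.7 CPM in alpha and 84.7 CPM in delta cells, so beta cells were lowest on either scale. *Phlda3* (chromosome 1, 135766085 to 135769134) was the rarest, with 18 UMIs and 1.12 CPM in WT beta cells, 16 UMIs and 6.65 CPM in alpha cells and 0 UMIs in delta cells, which allows up to 6.80 CPM. *Bax* (chromosome 7, 45461695 to 45466903) was the most abundant, at 104 CPM, 191 CPM and 152 CPM in beta, alpha and delta cells.

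**Figure D1:**
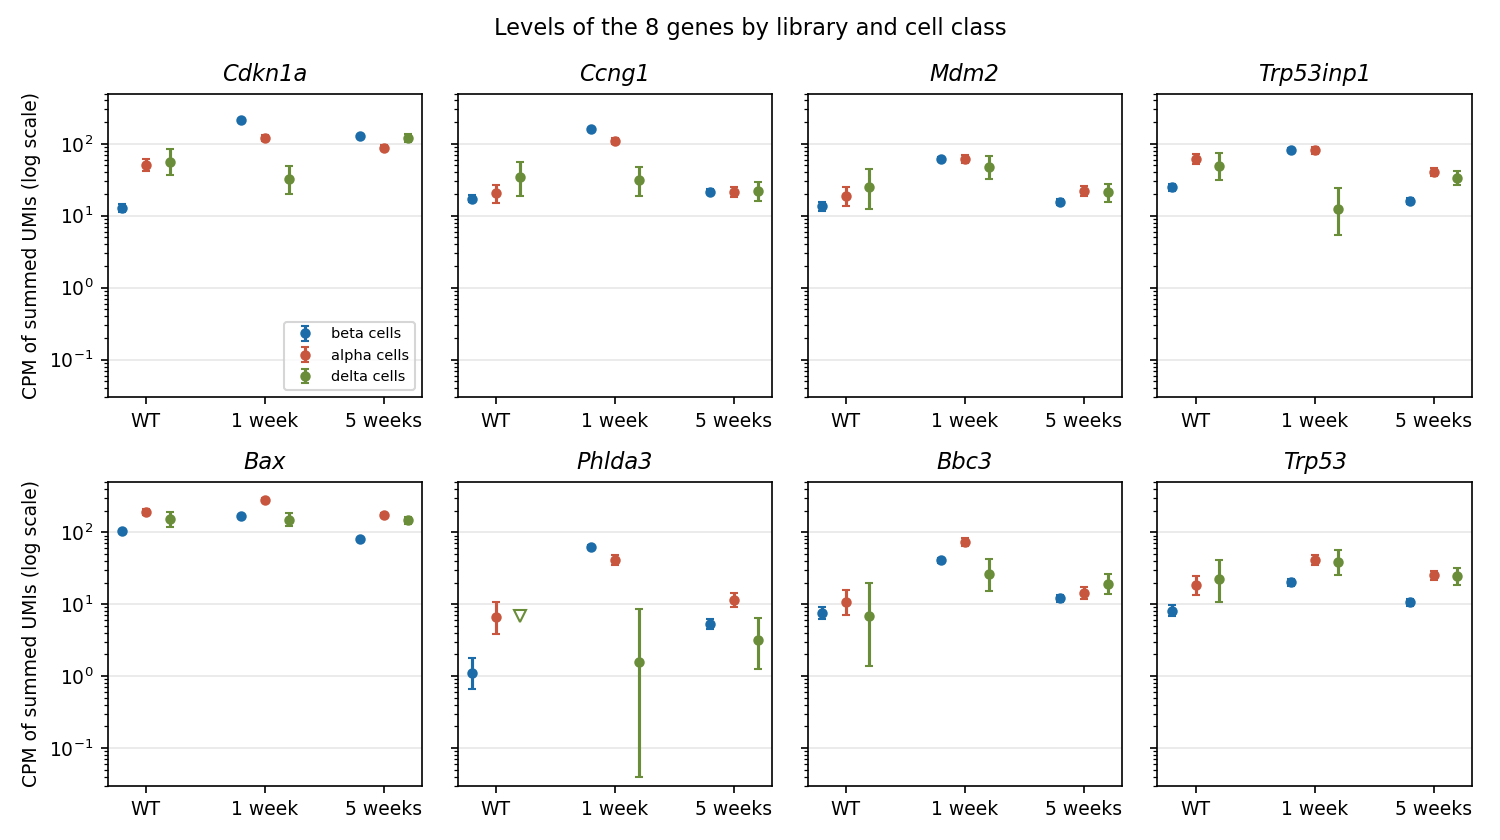
Level of each gene (CPM of summed UMIs, log axis) in beta, alpha and delta cells of the WT, 1-week and 5-week libraries, with exact Poisson 95% intervals; the open triangle is the limit that 0 UMIs of Phlda3 allow in WT delta cells. In beta cells Cdkn1a runs 12.8, 216 and 127 CPM, while Ccng1 runs 17.3, 159.6 and 21.5 CPM.

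At 1 week most of the p53 targets were higher in mutant than in WT beta cells. *Phlda3* had the highest ratio, then *Cdkn1a*, *Ccng1*, *Bbc3* and *Mdm2*, and *Bax* least. Of the 8 genes, 7 were at least 2-fold higher in CPM, where 55.0% of all 11615 genes with at least 20 UMIs were, so the count by itself does not set them apart. Hormone RNA made up 42.8% of 1-week beta cell UMIs, less than in WT. The lower *Ins2* limit at 1 week admits cells with less hormone RNA, and 358 of the 562 cells met the WT limits. The part of that limit in the lower share was not tested. A lower hormone share lifts all other genes, and the median of all genes was a log2 ratio of 1.11. With hormones left out, that median was 0.26, and 5 of the 8 genes were at least 2-fold higher, against 17.1% of all genes. On the first scale, 5 of the 8 lay above the 90th percentile of all genes, which was a log2 ratio of 2.10. The plot of beta cell ratios gives both scales.

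The arrest genes are *Cdkn1a* and *Ccng1*. *Cdkn1a* was at 215.5 CPM (208 to 223) in 1-week beta cells, from 3232 UMIs, against 12.8 CPM in WT. The log2 ratio was 4.07 (3.87 to 4.28), and 48 genes had a higher one. With hormones left out it was 3.23 (3.02 to 3.44). *Ccng1* (chromosome 11, 40748552 to 40755309), whose cyclin G1 is a long-known p53 target, went from 17.3 CPM (15.3 to 19.4) in WT to 159.6 CPM (153 to 166) at 1 week. Its log2 ratio was 3.21 (3.03 to 3.39), or 2.37 with hormones left out.

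*Mdm2* and *Trp53inp1*, which act back on p53, and *Trp53* itself had smaller ratios than *Ccng1*, which also counts as a feedback gene. *Mdm2* (chromosome 10, 117688875 to 117710758) went from 13.5 CPM (11.8 to 15.5) to 62.1 CPM (58.2 to 66.2), a log2 ratio of 2.20 (1.98 to 2.42). *Trp53inp1* (chromosome 4, 11156441 to 11174379) went from 24.7 CPM (22.3 to 27.2) to 81.6 CPM (77.0 to 86.3), a log2 ratio of 1.72 (1.56 to 1.89). *Trp53* (chromosome 11, 69580348 to 69591873), mostly controlled at the protein level, went from 8.10 CPM (6.77 to 9.62) to 20.3 CPM (18.1 to 22.8). Its log2 ratio of 1.33 was 0.22 above the median of all genes, so its RNA moved little more than the typical gene. With hormones left out the log2 ratios of *Mdm2*, *Trp53inp1* and *Trp53* were 1.36, 0.88 and 0.49.

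The genes of cell death and survival spread widest. *Phlda3* went from 1.12 CPM (0.665 to 1.77) to 62.5 CPM (58.6 to 66.7), a log2 ratio of 5.80 (5.13 to 6.56) that 6 genes exceeded. Only 18 WT UMIs stand behind the lower value, which is why its interval is the widest of the 8. *Bbc3* (chromosome 7, 16308398 to 16318334) went from 7.61 CPM (6.32 to 9.08) to 40.7 CPM (37.6 to 44.1), a log2 ratio of 2.42 (2.14 to 2.71), or 1.58 with hormones left out. *Bax* went from 104 CPM (99.1 to 109) to 168 CPM (162 to 175). That log2 ratio of 0.69 (0.60 to 0.78) lay below the median of all genes, and with hormones left out it was -0.15, so the direction of *Bax* turns with the scale.

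**Figure D2:**
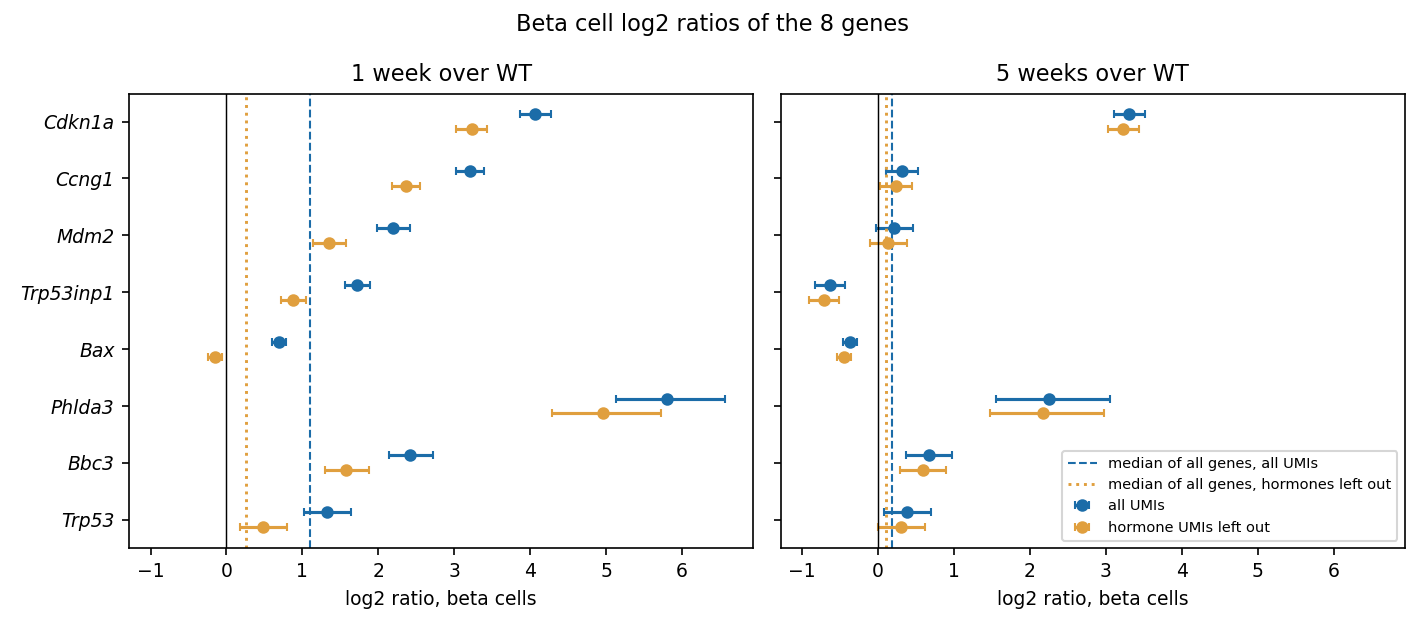
Log2 ratio of each gene in beta cells, 1 week over WT (left) and 5 weeks over WT (right), with exact 95% counting intervals, from all UMIs (blue) and with hormone UMIs left out (orange); vertical lines give the median of all genes on each scale. Phlda3 leads at 1 week with 5.80 and Cdkn1a at 5 weeks with 3.30, while Bax is at 0.69 and -0.15 at 1 week on the 2 scales.

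At 5 weeks *Cdkn1a* was still high in beta cells and most of the other genes were back near WT. Hormones made up 66.3% of beta cell UMIs, close to WT, and the median of all genes was a log2 ratio of 0.18. *Cdkn1a* stood at 127 CPM (123 to 131), a log2 ratio over WT of 3.30 (3.101 to 3.513) that 42 of 11874 genes exceeded. *Phlda3*, at 5.36 CPM (4.54 to 6.29), had a log2 ratio of 2.26 (1.55 to 3.05). These 2 of the 8 were at least 2-fold higher, against 9.40% of all genes, and the same 2 with hormones left out, against 7.83%. *Bbc3* followed at 12.1 CPM and a log2 ratio of 0.67 (0.36 to 0.98). *Trp53* at 10.6 CPM, *Ccng1* at 21.5 CPM and *Mdm2* at 15.7 CPM had log2 ratios of 0.38, 0.32 and 0.21, within 0.21 of the median of all genes. *Bax*, at 80.7 CPM, and *Trp53inp1*, at 15.9 CPM, were below WT with log2 ratios of -0.37 (-0.46 to -0.27) and -0.63 (-0.83 to -0.43). None of the 8 was at least 2-fold lower, as 5.97% of all genes were.

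Between 1 week and 5 weeks the genes parted. Of the 8, 6 were at least 2-fold lower in CPM at 5 weeks than at 1 week, where 46.4% of all genes were. None was at least 2-fold higher, as 3.67% of all genes were and 8.32% with hormones left out. *Bax* and *Bbc3*, among the 6 lower genes, were less than 2-fold lower with hormones left out, at log2 ratios of -0.30 and -0.99. The median of all genes was -0.18 on that scale, and the share of all genes at least 2-fold lower on it was not computed. The largest drops were in *Phlda3*, with a log2 ratio of -3.54 (-3.80 to -3.29), *Ccng1*, with -2.89 (-3.02 to -2.76), and *Trp53inp1*, with -2.35 (-2.51 to -2.20). *Cdkn1a* had a log2 ratio of -0.77 (-0.83 to -0.70), while the median of all genes was -0.94. With hormones left out, *Cdkn1a* was at 377 CPM in 1-week and at 376 CPM in 5-week beta cells, and the log2 ratio was -0.0015 (-0.07 to 0.07), whereas *Ccng1* went from 279 to 63.9 CPM and *Phlda3* from 109 to 15.9. The ratios of both times to WT share the WT library, and this contrast does not use it. Its cell classes were set by different limits, however, with a lower *Ins2* limit for beta cells and a minimum of UMIs at 1 week only. The lower limit admits cells with less hormone RNA. Among 1-week beta cells split by *Ins1* share (below), the lowest group held less hormone RNA than the highest. With hormones left out, it held *Phlda3* 3.56-fold, *Ccng1* 2.51-fold and *Cdkn1a* 1.33-fold higher. The part of the limits in the different drops of these genes was not tested.

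Alpha cells, at which the deletion was not aimed, showed part of the same pattern at 1 week. The study reported that some beta cells took on an alpha-like identity and expressed *Gcg* after the deletion. The alpha class used here was set by the share of *Gcg* alone, which does not separate such cells from other alpha cells. Their part in the alpha cell values was not tested. *Cdkn1a* went from 50.7 CPM in WT to 120.1 CPM (109 to 132) at 1 week, a log2 ratio of 1.24 (0.95 to 1.55). This was 0.82 (0.53 to 1.13), under 2-fold, with hormones left out. *Ccng1* went from 20.4 CPM (15.1 to 26.9) to 111 CPM (100.3 to 122), a log2 ratio of 2.44. *Bbc3* went from 10.8 CPM (7.06 to 15.8) to 73.1 CPM (64.7 to 82.3), the highest log2 ratio of the 8 in alpha cells at 2.76 (2.18 to 3.40). *Phlda3* followed with 6.65 CPM and 40.8 CPM and a log2 ratio of 2.62. In all 6 of the 8 were at least 2-fold higher, against 33.3% of all genes, and 0 at least 2-fold lower, against 6.11%. With hormones left out 4 of the 8 were higher, *Ccng1*, *Mdm2*, *Phlda3* and *Bbc3*, against 19.0%, and *Cdkn1a* and *Trp53* no longer were. The median of all genes in alpha cells was a log2 ratio of 0.63, and *Trp53inp1* at 0.40 and *Bax* at 0.54 lay below it. At 5 weeks 0 of the 8 were at least 2-fold higher in alpha cells, against 7.37% of all genes (9.40% with hormones left out), and 0 lower, against 2.11%. The highest ratio was that of *Cdkn1a*, at 87.9 CPM (81.1 to 95.1) and a log2 ratio of 0.79 (0.51 to 1.09). From 1 week to 5 weeks *Ccng1*, *Bbc3*, *Phlda3* and *Mdm2* were at least 2-fold lower in alpha cells, 4 of the 8 against 26.6% of all genes, and 0 were higher, against 8.34% (15.2% with hormones left out). Of these 4, *Mdm2* was less than 2-fold lower with hormones left out, at a log2 ratio of -0.93, where the median of all genes was 0.02.

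In the mutant libraries *Ins2* in alpha cells was at 2.20% (1 week) and 11.3% (5 weeks) of its beta cell CPM, a measure of beta cell RNA counted in alpha cells, while *Cdkn1a* in alpha cells was at 55.7% and 69.3% of its beta cell CPM. Within libraries, the log2 ratio of beta over alpha cells for *Cdkn1a* was -1.98 (-2.31 to -1.65) in the WT library, 0.84 (0.70 to 0.99) in the 1-week library and 0.53 (0.40 to 0.65) in the 5-week library, so the order of these classes was turned in both mutant libraries. The same ratio for *Trp53inp1* was -1.31, 0.01 and -1.36, back at the WT value by 5 weeks. *Bax* and *Trp53* were lower in beta than in alpha cells in each library.

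Delta cells at 1 week, few in number, held *Cdkn1a* at no higher level than in WT. In 38 delta cells *Cdkn1a* had 21 UMIs, 32.6 CPM (20.2 to 49.8), against 25 UMIs, 56.7 CPM, in WT, a log2 ratio of -0.80 (-1.71 to 0.10), or -1.08 (-1.99 to -0.18) with hormones left out. *Ccng1* was at 31.0 CPM (18.9 to 47.9) and 34.0 CPM (19.04 to 56.1) at 1 week and in WT, and *Mdm2* at 48.1 CPM (32.7 to 68.2) and 24.9 CPM (12.5 to 44.6), with overlapping intervals. *Bbc3*, from 17 against 3 UMIs, was the 1 gene at least 2-fold higher, where 27.4% of all genes were (17.9% with hormones left out), and *Trp53inp1*, from 8 against 22 UMIs, the 1 gene at least 2-fold lower, where 3.20% were. Both *Cdkn1a* and *Trp53inp1* were at least 2-fold lower with hormones left out, against 5.11% of all genes. *Phlda3* had 1 UMI at 1 week and 7 UMIs at 5 weeks, too few for a ratio. At 5 weeks *Cdkn1a* in delta cells stood at 121 CPM (107 to 137), a log2 ratio over WT of 1.099 (0.51 to 1.75). The log2 ratio of beta over delta cells was then 0.06 (-0.12 to 0.25), but 1.01 with hormones left out. With *Bbc3*, from 43 against 3 UMIs, 2 genes were at least 2-fold higher in delta cells at 5 weeks, against 10.4% of all genes (11.4% with hormones left out), and 0 were lower, against 3.57%. Beside it, RNA of other hormones was also higher in the 5-week delta cells: *Ins2* was at 42954 CPM in WT, 8561 CPM at 1 week and 106098 CPM at 5 weeks, and *Gcg* at 3247 CPM, 411 CPM and 28765 CPM. At 5 weeks *Ins2* in delta cells was at 18.5% of its beta cell CPM, and the 202 delta cells that also met the limits of another class are among them. Without cells of more than 1 class the log2 ratio of *Cdkn1a* was 1.21. Beyond that value, the part of beta and alpha cell RNA in the delta cell levels was not tested. From 1 week to 5 weeks *Cdkn1a* and *Trp53inp1* were at least 2-fold higher in delta cells, with log2 ratios of 1.90 (1.26 to 2.61) and 1.44 (0.39 to 2.70), where 4.76% of all genes were (8.13% with hormones left out). *Mdm2* was at least 2-fold lower, with a log2 ratio of -1.19, where 20.5% were. With hormones left out it stood at -0.87, where the median of all genes was -0.14.

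The plot of thinned cells gives shares of cells once each cell was reduced to the same total of UMIs. Before thinning, 2.30% of WT beta cells, 74.0% of 1-week beta cells and 33.2% of 5-week beta cells had a *Cdkn1a* UMI, at median depths of 1656, 24754.5 and 3868 UMIs. Each cell was then thinned to 1000 UMIs, and shallower cells were left out (502 WT, 0 1-week and 207 5-week beta cells). A *Cdkn1a* UMI was then found in 87 of 7769 WT beta cells, 1.12% (0.898% to 1.38%), in 92 of 562 at 1 week, 16.4% (13.4% to 19.7%), and in 596 of 5478 at 5 weeks, 10.9% (10.1% to 11.7%). These intervals are over the cells of 1 library each. Hormones took 68.1%, 42.8% and 66.3% of beta cell UMIs, so the UMIs left for other genes still differed after thinning, and the lower share at 5 weeks than at 1 week does not hold on the scale without hormones, where *Cdkn1a* was at 377 and 376 CPM. For *Ccng1* the shares were 1.88%, 15.8% and 2.15%, and for *Phlda3* 0.0644%, 8.72% and 0.566%. No class of the files is known to lack *Cdkn1a*, so a background share could not be read. The share of free RNA was not measured. The values given for *Ins2* in alpha and delta cells do not separate free RNA from doublets or cells of mixed hormones. In alpha cells, 2176 of 2815 WT cells were too shallow to be thinned.

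**Figure D3:**
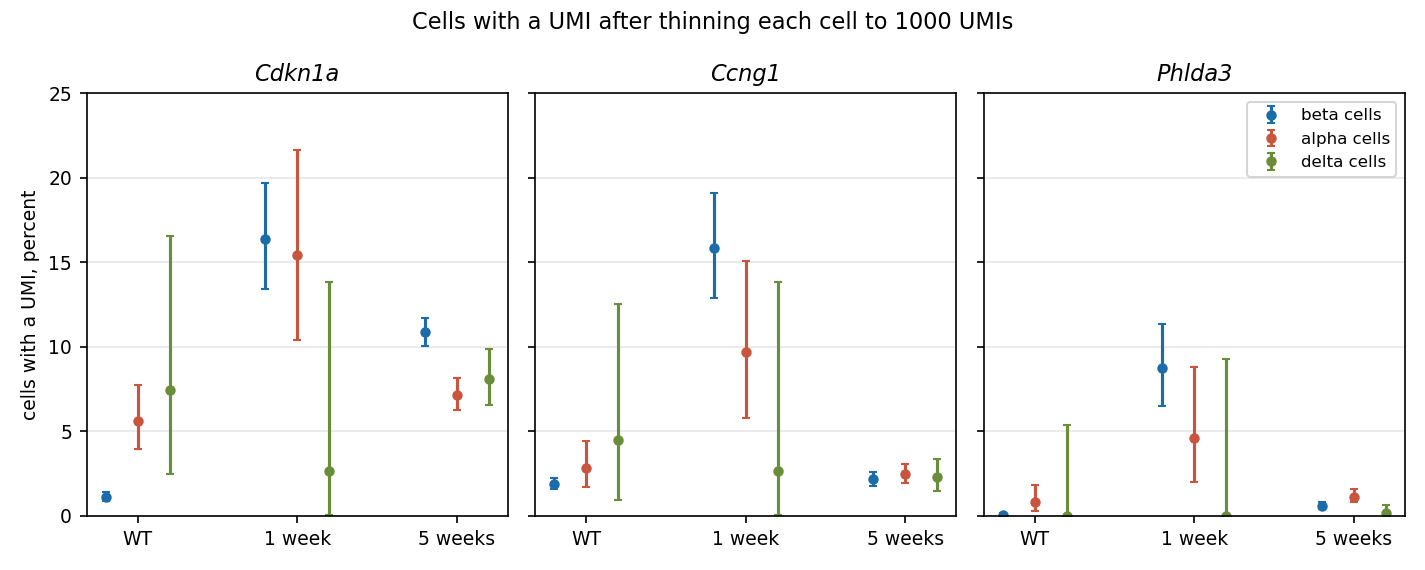
Percent of cells with at least 1 UMI of Cdkn1a, Ccng1 or Phlda3 after each cell was thinned to 1000 UMIs, by library and class, with exact binomial 95% intervals. Among beta cells Cdkn1a was found in 1.12%, 16.4% and 10.9% of WT, 1-week and 5-week cells, while Ccng1 was found in 1.88%, 15.8% and 2.15%.

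Within 1-week beta cells some targets were detected in a larger share of cells with a *Cdkn1a* UMI than of cells without. After thinning to 1000 UMIs, *Mdm2* was detected in 14.1% (7.74% to 23.0%) of the 92 cells with a *Cdkn1a* UMI and in 4.68% (2.96% to 7.001%) of the 470 without one. For *Phlda3* the shares were 18.5% (11.1% to 27.9%) and 6.81% (4.70% to 9.48%), and for *Bax* 32.6% (23.2% to 43.2%) and 11.1% (8.37% to 14.3%). For *Ccng1*, *Trp53inp1*, *Bbc3* and *Trp53* the intervals overlapped. At 5 weeks, *Phlda3* was detected in 1.85% (0.925% to 3.28%) of 596 cells with a *Cdkn1a* UMI and in 0.410% (0.250% to 0.632%) of 4882 without one, while the other 6 genes had overlapping intervals. Over all genes detected in at least 10 of the thinned cells, the interval with *Cdkn1a* lay above that without for 1.42% of 5626 genes at 1 week and for 1.10% of 9816 at 5 weeks. Cells with a *Cdkn1a* UMI also held less hormone RNA, on average 29.4% against 37.7% of UMIs at 1 week and 60.6% against 64.4% at 5 weeks, and its part in these shares was not tested. Thinned to 5000 UMIs, 281 of the 562 1-week beta cells held a *Cdkn1a* UMI, the mean was 1.19 UMIs and the highest cell had 19. Over those 562 cells, which share 1 library and differ in hormone content, Spearman's rho between *Cdkn1a* and *Phlda3* was 0.41, with *Ccng1* 0.36 and with *Bax* 0.32. The 21 pairs among the 7 genes other than *Trp53* had a median rho of 0.22. Outside the 8 genes, rho between *Cdkn1a* and the stress gene *Ddit3* was 0.34. With *Actb*, a cytoskeletal gene, it was 0.23, and with *Eif4a1*, a translation factor, 0.15. *Ccng1* had a rho of 0.47 with *Ddit3*, above the highest of the 21 pairs at 0.41, and of 0.36 with *Actb*. Only *Ddit3*, *Actb* and *Eif4a1* were compared from outside the 8 genes. The 8 genes averaged from 0.11 UMIs (*Trp53*) to 1.19 UMIs (*Cdkn1a*) per thinned cell, and rho was not adjusted for such differences in level. Whether pairs within the 8 genes stand apart from other pairs was not tested.

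The 1-week beta cells were split into 4 groups of 140 or 141 cells by the share of *Ins1* in their insulin UMIs, which falls in mutant beta cells. In the lowest group this share was at most 1.24%, in the highest at least 6.05%. *Cdkn1a* went from 303 CPM (284 to 323) in the lowest group through 293 CPM and 210.0 CPM to 115 CPM (106 to 125) in the highest. *Ccng1* went from 261 CPM (243 to 280) to 52.3 CPM (46.2 to 59.0) and *Phlda3* from 111 CPM (99.4 to 123) to 15.7 CPM (12.4 to 19.6). All 8 genes were at least 2-fold higher in the lowest than in the highest group, where 43.5% of all genes were, and hormones took 23.3% of UMIs in the one and 61.3% in the other. With hormones left out, 3 of the 8 were, *Phlda3* at 3.56-fold, *Ccng1* at 2.51-fold and *Bbc3* at 2.18-fold, against 1.67% of all genes, and *Cdkn1a* was 1.33-fold higher. *Ddit3*, which encodes the endoplasmic reticulum stress factor Chop, was 3.64-fold higher on the same scale and is named because its values moved with the split. Even the highest group held *Cdkn1a* at 298 CPM without hormones, against 40.3 in WT beta cells. In WT beta cells the same split gave 13.6 CPM (10.1 to 18.0) and 14.3 CPM (10.8 to 18.7) in the lowest and highest group. At 5 weeks *Cdkn1a* went from 177 CPM (165 to 190) to 97.3 CPM (90.5 to 105), and 1 of the 8, *Phlda3*, was at least 2-fold higher in the lowest group, against 3.46% of all genes, and 0 with hormones left out, against 0.819%.

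**Figure D4:**
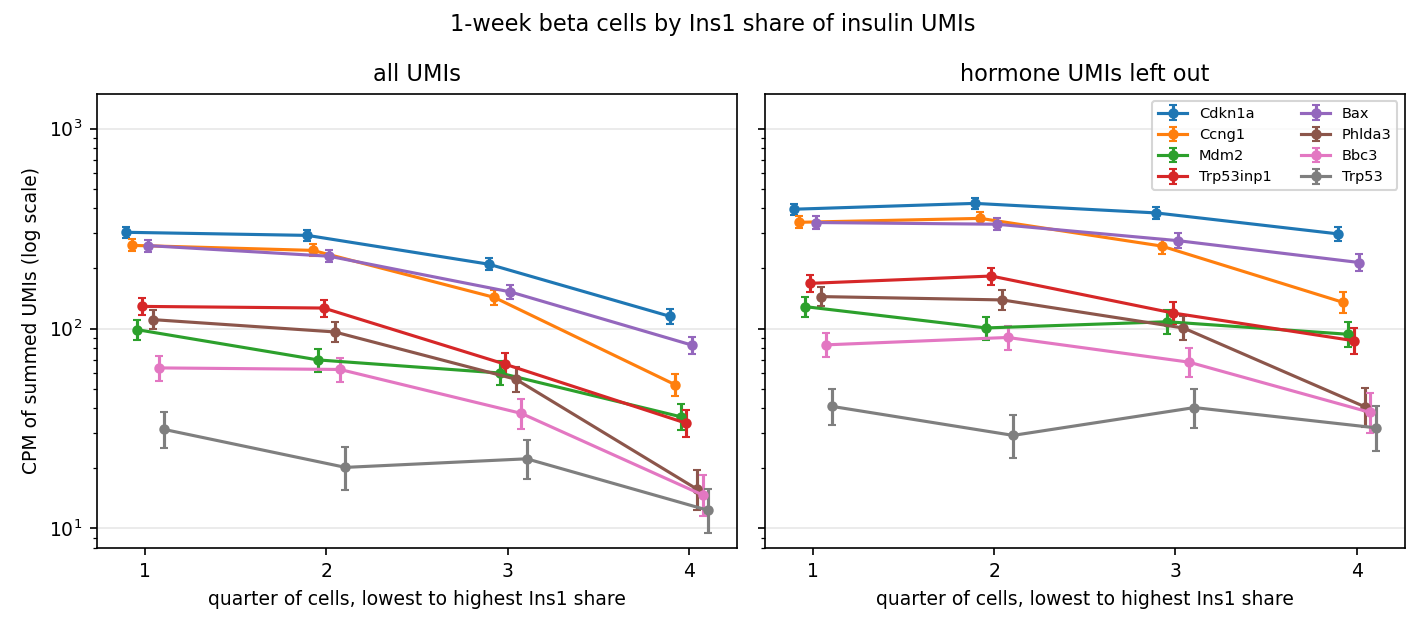
Level of the 8 genes (CPM of summed UMIs, log axis) in 4 equal groups of the 1-week beta cells, ordered from the lowest to the highest Ins1 share of insulin UMIs, with exact Poisson 95% intervals, from all UMIs (left) and with hormone UMIs left out (right). Cdkn1a falls from 303 to 115 CPM on the left, and Phlda3 from 111 to 15.7 CPM.

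Other p53 targets, from 4 lists of 45 genes in all beside the 8, were mostly higher than WT in beta cells at 1 week. Of 39 with at least 20 UMIs, 31 were at least 2-fold higher and 0 lower, against 55.0% and 3.71% of all genes, and their median log2 ratio was 1.68 against 1.11. At 5 weeks 6 of 38 were at least 2-fold higher and 1 lower, against 9.40% and 5.97% of all genes, with a median of 0.21 against 0.18. From 1 week to 5 weeks 30 of 40 were at least 2-fold lower and 1 higher, against 46.4% and 3.67%. In alpha cells 20 of 39 were at least 2-fold higher and 4 lower at 1 week, against 33.3% and 6.11%, and 4 of 36 higher at 5 weeks, against 7.37%. In delta cells 8 of 16 were higher and 1 lower at 1 week, against 27.4% and 3.20%, and 6 of 27 higher and 1 lower at 5 weeks, against 10.4% and 3.57%. The arrest list held both kinds: *Gadd45a*, a stress sensor, stood at 5.11 CPM, 82.2 CPM and 9.44 CPM in WT, 1-week and 5-week beta cells, while *Btg2*, an antiproliferative early gene, was at 107 CPM, 89.9 CPM and 435 CPM, higher than WT at 5 weeks only, with a log2 ratio of 2.02 (1.94 to 2.09). *Plk3*, a stress kinase, was at 10.8 CPM, 34.9 CPM and 10.7 CPM, and *Ccng2*, a cyclin related to *Ccng1*, was 2-fold lower or more at 5 weeks only, with a log2 ratio of -1.13.

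In the list of cell death genes, 6 of 7 were at least 2-fold higher at 1 week, against 55.0% of all genes, and 1 of 7 at 5 weeks, near the 9.40% of all genes. *Aen*, an apoptosis-enhancing nuclease, stood at 6.36 CPM, 57.5 CPM and 13.1 CPM in WT, 1-week and 5-week beta cells. *Triap1*, an inhibitor of apoptosis, was at 24.9 CPM, 38.0 CPM and 39.1 CPM. *Perp*, a desmosomal protein, and *Zfp365* had log2 ratios of 1.30 and 1.77 at 1 week and of -0.27 and -0.18 at 5 weeks.

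Of the 17 targets in repair and metabolism, 15 were at least 2-fold higher at 1 week and 4 at 5 weeks, against 55.0% and 9.40% of all genes. *Dglucy*, a glutamate cyclase, stood at 0.686 CPM (11 UMIs), 16.1 CPM and 2.00 CPM. *Ddit4*, which restrains mTOR signalling, was at 10.7 CPM, 23.7 CPM and 42.2 CPM. *Mgmt*, a DNA repair methyltransferase, and *Ak1*, an adenylate kinase, had log2 ratios of 1.23 and 1.21 at 1 week and of -0.92 and -0.49 at 5 weeks. Chosen after its values were seen, *Gdf15*, a secreted stress cytokine, went from 0.873 CPM to 17.7 CPM in beta cells and from 3.74 CPM to 205 CPM in alpha cells at 1 week, and was at 278 CPM in the 38 delta cells, where WT had 0 UMIs. At 5 weeks it was at 0.822 CPM in beta cells. All 4 feedback targets were at least 2-fold higher at 1 week and 0 at 5 weeks, against the same 55.0% and 9.40%. Of these *Ppm1d*, the phosphatase Wip1, had log2 ratios of 2.41 and 0.58, and *Wrap53*, *Fbxw7* and *Rchy1* had 1.39, 1.08 and 1.65 at 1 week and 0.18, -0.07 and -0.01 at 5 weeks. *Wrap53* overlaps *Trp53* on the opposite strand.

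**Figure D5:**
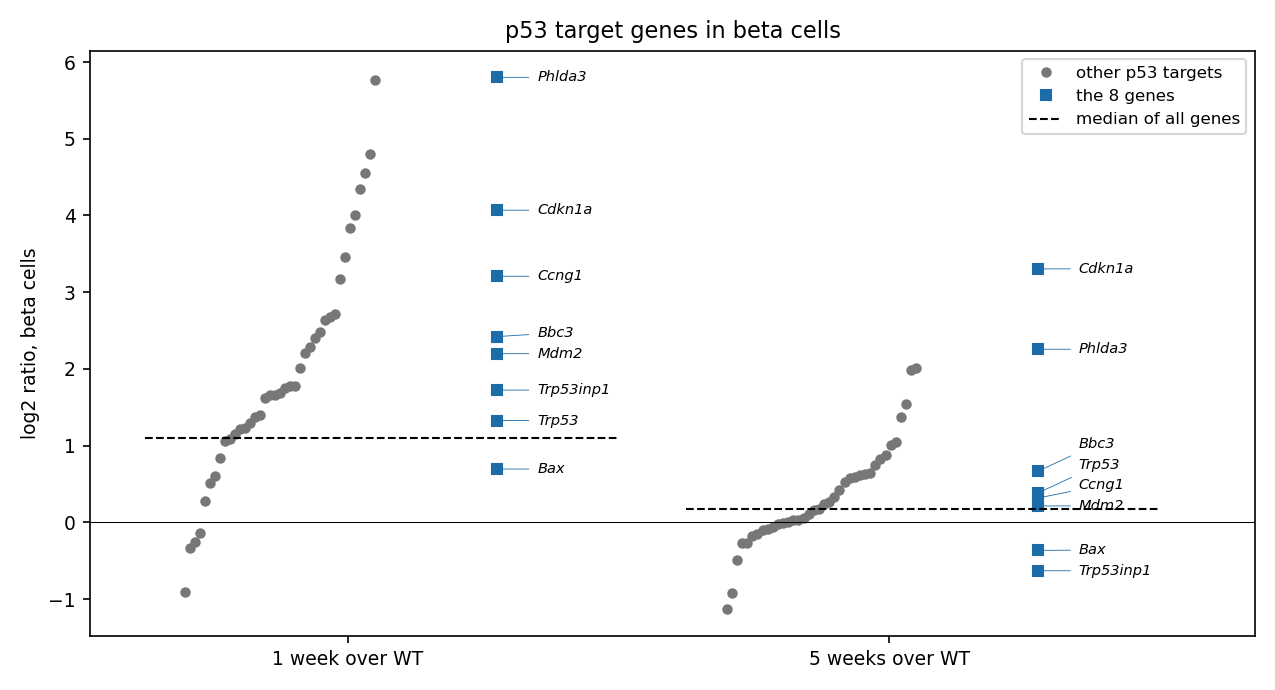
Log2 ratio in beta cells of the 39 (1 week over WT) and 38 (5 weeks over WT) other p53 targets with at least 20 UMIs, sorted, beside the 8 genes (squares); the dashed line is the median of all genes. At 1 week the other targets have a median of 1.68 and at 5 weeks of 0.21, where Cdkn1a alone of all points shown passes 3.

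Regulators of p53, the BCL2 family and the genes around CDK inhibitors had median log2 ratios of 1.32, 1.05 and 0.90 in 1-week beta cells, where all genes had 1.11. Of 15 regulators with at least 20 UMIs, 10 were at least 2-fold higher and 1 lower at 1 week, near the 55.0% and 3.71% of all genes, and 0 higher and 1 lower at 5 weeks, against 9.40% and 5.97%. *Atm*, a damage kinase, and *Usp7*, which stabilises Mdm2 and p53, had log2 ratios of 1.78 and 1.76 at 1 week and of 0.77 and 0.55 at 5 weeks. *Chek1*, a checkpoint kinase, was the lower gene, from 19 WT UMIs to 5 and 10, and *Rpl11*, a ribosomal protein that can bind Mdm2, had ratios of 0.59 and -0.42. In the BCL2 family beside *Bax* and *Bbc3*, 6 of 11 were at least 2-fold higher at 1 week, near the 55.0% of all genes, and 1 was lower. At 5 weeks 1 of 12 was higher, near 9.40%, and 3 were lower, against 5.97%. *Bmf*, a pro-apoptotic gene, from 6 WT UMIs to 29 and 28, had log2 ratios of 2.37 and 1.42, *Bik*, also pro-apoptotic, had -1.41 and -1.95, *Bid* 0.79 and -1.74, and *Bcl2*, which opposes apoptosis, -0.78 and 0.64 from 11, 6 and 30 UMIs. Among CDK inhibitors, cyclins and their kinases, 5 of 12 were at least 2-fold higher at 1 week, a smaller share than the 55.0% of all genes, and 2 of 13 at 5 weeks, against 9.40%. Those 2 were *Cdkn1c* (p57), from 8 WT UMIs to 81 and 91 with log2 ratios of 3.44 and 2.71, and *Pcna*, a replication clamp that p21 binds, at 5.24 CPM, 17.8 CPM and 10.9 CPM. *Ccne1* and *Cdk2*, at 0.873 CPM and 0.561 CPM in WT, had ratios of 0.46 and -0.75 at 1 week and of -0.36 and -0.27 at 5 weeks, on at most 19 UMIs each.

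The pattern of *Cdkn1a* over the 9 sums (3 classes in 3 libraries) was most like that of *Ncbp2*, a nuclear cap-binding subunit, with Pearson's r = 0.953 of log2(CPM + 10) among 9780 genes with at least 200 UMIs. *Erh*, *Oxct1*, *Ppp1r15a*, *Pik3r4*, *Taf12*, *Ears2*, *H2afz*, *Ifrd1* and *Map3k3* followed, with r from 0.896 to 0.836. *Ncbp2* ran 24.7, 60.4 and 48.2 CPM in WT, 1-week and 5-week beta cells, and *Ppp1r15a*, the stress gene Gadd34, ran 17.3, 96.3 and 60.4 CPM. Among the other 7 members the closest was *Phlda3*, with r = 0.694 at rank 107, then *Ccng1*, with 0.593 at rank 348. *Trp53* had 0.245 and *Bax* 0.252. These r values rest on 9 sums that share 3 libraries and are a description.

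Transcripts of other cell types also differed between the libraries. Acinar markers, all 10 of them detected in beta cells of each library, summed to 4971 CPM, 15.9 CPM and 573 CPM in WT, 1-week and 5-week beta cells. Macrophage markers summed to 62.8 CPM, 14.5 CPM and 8.29 CPM, with *Adgre1* at 0 in each, mesenchymal markers to at most 1.32 CPM, and ductal markers to 111 CPM, 172 CPM and 149 CPM with *Cftr* at 0. Endothelial markers, 8 in the list, were at 4.92 CPM, 5.40 CPM and 17.2 CPM, with *Cdh5*, *Kdr* and *Emcn* at 0 in 1-week beta cells. The part of these cell types in the values above was not tested. Without the 23 of 5685 5-week beta cells that held 3 or more endothelial UMIs, a step chosen after the data were seen, the log2 ratio of *Cdkn1a* at 5 weeks was 3.29.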

How the data were processed

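Islet cells of 3 groups (WT, *Taf4* mutant at 1 week and at 5 weeks) had been sequenced on the 10X Genomics Chromium 3′ platform, 1 library each. The authors deposited raw counts, whole UMIs per gene and cell barcode, not normalized; the submitters' processing notes name bcl2fastq 2.17.1.14, Cell Ranger 3.1, Seurat 3.1.4 and mm10. Only the WT library had been filtered by the authors for doublets and mixed-hormone cells and scaled to 12000 cells; no doublet caller was run here. Median depth was 1396, 2759 and 2467 UMIs per barcode in WT, 1-week and 5-week libraries. For each library, UMIs were summed over beta, alpha and delta cells and scaled to CPM. Poisson (level), conditional binomial (ratio) and Clopper-Pearson (share) intervals at 95% were exact and cover counting error only. A gene was called at 2-fold or more if the compared libraries held 20 or more of its UMIs when added up, and in counts over all genes one at 0 UMIs was placed at 3 counts. No ratio was given for a member at 0. With 1 library per group no p-value was computed.

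The 8 genes and all lists were chosen with earlier results of these data known. Named genes were the 8 members, the 2 highest and 2 lowest genes of each list by the 5-week over WT beta cell ratio, and the 10 genes most like *Cdkn1a*; *Gdf15*, *Ddit3*, genes with a promoter element and endothelial markers were added after their values were seen. The split by *Ins1* share was also made with results known. Promoters came from RefSeq (GRCm38.p6). The software was scipy 1.17.1, numpy 2.4.6 and Python 3.11.15, with the computation of ratios and intervals tested on simulated data. Alternatives changed class limits, cell filters, depth, the total used for CPM, the minimum of UMIs and the fold.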

Additional observations from a re-analysis of the deposited data

Results flagged for a closer look

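*Trp53inp1* differed in direction between beta and delta cells at 1 week. The log2 ratio over WT was 1.72 in beta cells, 0.40 in alpha cells and -2.01 in delta cells, the last from 8 against 22 UMIs. With hormones left out it was 0.88 in beta cells, -0.015 (-0.30 to 0.28) in alpha cells and -2.29 in delta cells, so the alpha cell value had no clear direction. Each class is 1 summed value per library, and the difference between classes was not tested. *Cdkn1a* was also counted in barcodes that enter no comparison above. In the 1415 barcodes of the 1-week library under 5000 UMIs it stood at 70.6 CPM (59.4 to 83.2), against 18.8 CPM over all WT barcodes. In the 774 barcodes of the 5-week library that met no class and held under 5000 UMIs it stood at 662 CPM (617 to 708), from 828 UMIs. In 285 such WT barcodes it stood at 21.2 CPM (10.6 to 37.9). These 2 sets need not hold the same cell types. The 5-week library had 226 barcodes of no class with endothelial markers, at a median of 1218 UMIs and with 610 *Cdkn1a* UMIs, and WT had 0. The part of cell type in the difference was not tested.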

How the results depend on the processing

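No paired analysis was possible because each group is 1 library. The beta cell log2 ratio of *Cdkn1a* at 1 week, 4.07, became 3.79 with the class limits of WT applied at 1 week and 3.23 with hormones left out of the total. At 5 weeks, 3.30 became 3.09 in cells of at least 2000 UMIs, 3.602 with each cell thinned to 1000 UMIs and 3.58 as the mean of the CPM of each cell. The direction of these 2 ratios held in every alternative run, and apart from hormones, which by construction raise the scale of all other genes, the cause of the shifts was not tested. Between 5 and 8 of the 8 genes were at least 2-fold higher in 1-week beta cells, depending on the setting. In 5-week beta cells 2 or 3 were. The share of all genes moved as well. In 1-week beta cells it was 55.0% with the main settings and 17.1% with hormones left out, and in 5-week beta cells 9.40% and 7.83%. In 1-week alpha cells 6 of the 8 were higher with the main settings, against 33.3% of all genes, and 3 with cells thinned to 1000 UMIs. The number was also lower with hormones left out, against 19.0% of all genes, where *Cdkn1a* and *Trp53* had log2 ratios of 0.82 and 0.72. For the other settings the share of all genes is not given here, so their counts cannot be set against it. Over all alternatives, 61 of 80 beta cell ratios at 1 week and 75 of 80 at 5 weeks stayed within the counting interval, and 33 values were not given because a count was 0. Leaving out cells with 3 or more endothelial UMIs was added after the data were seen. Depth limits delta cells most.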

Other observations

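At 5 weeks *Cdkn1a* was most abundant outside the endocrine classes. Among barcodes in no class, 226 of the 5-week library held at least 3 UMIs of 8 endothelial markers, all 8 of which were detected, at a median of 1218 UMIs per barcode. *Cdkn1a* stood at 1949 CPM (1798 to 2110) in them, from 610 UMIs, and was found in 181 of the 226 (80.1%). The other targets did not share that level: *Ccng1* was at 6.39 CPM from 2 UMIs, *Phlda3* at 19.2 CPM from 6 UMIs and *Mdm2* at 70.3 CPM from 22 UMIs. WT had 0 such barcodes and 1 week had 3, so no comparison with WT was possible. These barcodes were chosen after the data were seen.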
